A study of Mus musculus with 12 samples.

Results

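Type I interferon-stimulated genes were followed in the striatum of C57BL/6J mice as a set of 38 genes, chosen by name, out of 54532 genes listed in the files. All 38 had enough counts to be tested among 18537 genes. The 12 libraries formed 4 groups of 3: 3d-SN011 and SN011, both from mice with transient middle cerebral artery occlusion (tMCAO, a model of ischaemic stroke) that received SN-011, vehicle, from tMCAO mice given PBS, and sham, from sham-operated mice given PBS. SN-011 is an antagonist of STING, the adaptor that relays the sensing of cytosolic DNA. The sources used here give neither the meaning of the prefix 3d nor the doses, sampling times, ages or sexes, and no vehicle or sham library carries that prefix. Nor do the labels say whether each library is a separate animal, so the p-values reflect only the spread between these libraries.

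Type I interferons bind the receptor formed by IFNAR1 and IFNAR2, whose kinases JAK1 and TYK2 phosphorylate STAT2. Together with IRF9, STAT2 is part of the complex ISGF3, which binds interferon-stimulated response elements and turns on genes that block viral entry, translation and replication. In the brain microglia, astrocytes, endothelium and neurons can all respond. STING acts upstream, through TBK1 and IRF3, to induce interferon beta.

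Depth was 15806076 to 18622053 counts per library, and levels are given as CPM (counts scaled to a common library size) after TMM scaling. Several libraries stood apart from the others of their group. SN011 replicate 3 had summed CPM of 5047 over 9 striatal projection neuron markers and 1419 over 8 microglia markers, against 8293 and 9057 for the neuron markers and 626 and 476 for the microglia markers in SN011 replicates 1 and 2. In 3d-SN011 the neuron markers summed to 333, 1454 and 2164 CPM, against 8774 to 9154 in vehicle and 8549.8 to 9173 in sham. The microglia markers summed to 1826 to 3270 CPM in 3d-SN011 and to 379.9 to 423 CPM in vehicle, and all 8 rose by the edgeR quasi-likelihood test, while all 9 neuron markers fell. In 3d-SN011 against vehicle that test called 28.9% of all genes higher and 28.2% lower. In bulk tissue, fewer cells of a type and less RNA per cell cannot be told apart, and the part of these markers in the results on interferon-stimulated genes was not tested.

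The 38 genes were high in 3d-SN011, lower and uneven in SN011, and low in vehicle and sham. Their summed level was 1809, 2462.5 and 1143 CPM in 3d-SN011 replicates 1, 2 and 3, then 582, 281 and 1059.6 CPM in SN011, 202, 389.65 and 283 CPM in vehicle and 236, 224 and 192 CPM in sham. The lowest 3d-SN011 library lay above the highest SN011 library by a small margin, and SN011 replicate 2 lay below vehicle replicate 2. Lgals3bp alone made up 20.3% to 25% of the sum in 3d-SN011 and 8.82% to 14.5% in vehicle, so the sum leans on 1 gene. The median over the genes of log2(CPM + 1) above the sham mean, in which each gene counts alike, was 2.96, 3.18 and 2.07 in 3d-SN011, 1.33, 0.36 and 2.01 in SN011, and -0.045, 0.78 and 0.41 in vehicle. By this measure SN011 replicate 3 and 3d-SN011 replicate 3 were nearly level.

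**Figure D1:**
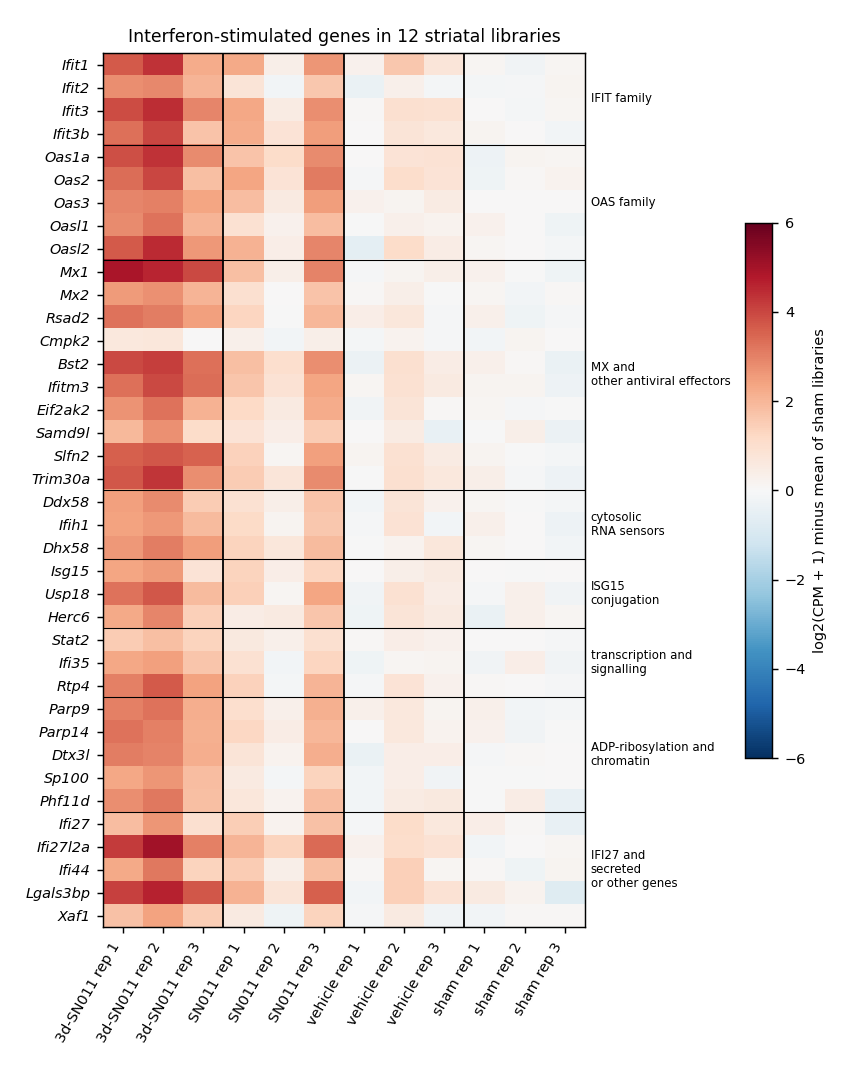
Each cell is log2(CPM + 1) of 1 gene in 1 library minus the mean of the 3 sham libraries, with genes in rows grouped by role and libraries in columns. The 3d-SN011 columns are red in nearly every row, SN011 replicate 3 is close to 3d-SN011 replicate 3 (medians 2.01 and 2.07), and vehicle replicate 2 is redder than the other vehicle columns.

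Per kilobase of exon, the most abundant of the 38 in 3d-SN011 were Ifitm3 at 147 ± 41.1 CPM per kb and Lgals3bp at 138 ± 42.3 (SD, n = 3), followed by Bst2 at 80.4 ± 23.2, Ifi27 at 63.7 ± 35.4 and Ifi27l2a at 63.3 ± 41.01. Ranges of mean ± SD overlapped between all neighbours in this order except between Ifit3, at rank 6 with 50.1 ± 24.1, and Slfn2, at rank 7 with 18.01 ± 1.18. Oas3 was lowest in each group, at 0.836 ± 0.212 CPM per kb in 3d-SN011. The order differed in sham, where Ifi27 was highest at 16.3 ± 4.92 CPM per kb, then Ifitm3 at 11.1 ± 2.29 and Lgals3bp at 7.68 ± 3.28, and Cmpk2, at rank 18 in 3d-SN011 with 9.33 ± 2.198, was at rank 4 with 6.61 ± 0.775.

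The promoters of the genes are shown because the study targets a pathway whose output passes through a known DNA element. The interferon-stimulated response element has a core of 2 copies of GAAA with any 2 bases between them, which was searched on both strands of RefSeq windows of 250 bases before to 50 bases after each transcription start (GRCm38.p6). Of the 38 genes 28 had a window, and 14 of the 28 (50%) held the core, against 1079 of 27025 genes with a window (3.99%). Overlapping matches were counted, and Ifit3 and Ifit3b are near copies (259 of 260 aligned bases alike, with gaps left out of the count), so the genes are not independent. A longer run of 3 copies, each 2 bases from the next, was in 3 of the 28, Isg15, Oas1a and Bst2, and in 0.133% of genes. No window was given for Oas2, Mx1, Mx2, Dhx58, Usp18, Rtp4, Parp9, Parp14, Ifi27 and Ifi27l2a. The 200 bases before the start are printed below for genes with 2 or more cores in them, and for the neighbours Rsad2 and Cmpk2, 1 with a core and 1 without. They run 5′ to 3′ on the strand of the gene, and capitals mark the core, which reads as 2 copies of TTTC where it lies on the other strand. The windows are Isg15 at chr4:156200819-156201018 (minus strand), Ifit1 at chr19:34640689-34640888 (plus), Ifit3 at chr19:34583329-34583528 (plus), Ifit3b at chr19:34607757-34607956 (plus), Oas1a at chr5:120907526-120907725 (minus), Bst2 at chr8:71537473-71537672 (minus), Rsad2 at chr12:26456453-26456652 (minus) and Cmpk2 at chr12:26469015-26469214 (plus).
Isg15: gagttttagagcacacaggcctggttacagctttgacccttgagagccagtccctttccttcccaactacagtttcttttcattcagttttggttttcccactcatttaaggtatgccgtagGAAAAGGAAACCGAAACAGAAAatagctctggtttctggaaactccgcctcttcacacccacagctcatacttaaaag
Ifit1: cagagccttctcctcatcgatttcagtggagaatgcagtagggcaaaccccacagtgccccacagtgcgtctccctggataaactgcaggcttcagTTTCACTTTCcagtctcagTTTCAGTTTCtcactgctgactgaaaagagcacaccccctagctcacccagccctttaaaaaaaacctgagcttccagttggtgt
Ifit3: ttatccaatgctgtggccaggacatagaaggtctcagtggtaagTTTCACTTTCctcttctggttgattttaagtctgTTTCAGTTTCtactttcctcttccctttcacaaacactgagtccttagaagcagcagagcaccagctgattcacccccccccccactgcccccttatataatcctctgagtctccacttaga
Ifit3b: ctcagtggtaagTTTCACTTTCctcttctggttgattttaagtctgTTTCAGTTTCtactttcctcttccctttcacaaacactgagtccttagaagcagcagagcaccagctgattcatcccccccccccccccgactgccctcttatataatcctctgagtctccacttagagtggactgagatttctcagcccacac
Oas1a: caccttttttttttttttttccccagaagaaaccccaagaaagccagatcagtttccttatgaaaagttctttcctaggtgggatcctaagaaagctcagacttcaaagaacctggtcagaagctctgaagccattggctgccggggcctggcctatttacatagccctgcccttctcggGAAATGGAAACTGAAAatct
Bst2: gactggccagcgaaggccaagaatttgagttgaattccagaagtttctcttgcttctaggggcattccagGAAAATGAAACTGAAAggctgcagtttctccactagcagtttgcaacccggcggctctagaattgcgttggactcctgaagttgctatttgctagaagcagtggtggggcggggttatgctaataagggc
Rsad2: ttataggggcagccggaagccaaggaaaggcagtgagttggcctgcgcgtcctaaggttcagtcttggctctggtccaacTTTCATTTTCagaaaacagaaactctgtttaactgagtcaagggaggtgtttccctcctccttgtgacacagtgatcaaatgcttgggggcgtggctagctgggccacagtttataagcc
Cmpk2: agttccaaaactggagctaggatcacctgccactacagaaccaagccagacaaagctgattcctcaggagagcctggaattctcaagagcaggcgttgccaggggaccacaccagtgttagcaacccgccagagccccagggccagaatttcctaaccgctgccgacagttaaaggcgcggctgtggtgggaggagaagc

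In Isg15, 3 cores overlapped between bases -78 and -57 from the start, and in Oas1a 2 overlapped between bases -20 and -5. Ifit1, Ifit3 and Ifit3b each carried 2 cores on the strand opposite the gene. Rsad2, which makes the antiviral nucleotide ddhCTP, had 1 core in its window, whereas Cmpk2, its neighbour on chromosome 12 and a mitochondrial nucleotide kinase, had none. A match is a run of letters and no evidence of binding, and no match says nothing about the rest of the gene. Genes with a window and no core rose by log2 0.48 (Cmpk2) to 4.11 (Oasl1) in 3d-SN011 against vehicle. Those with a core rose by log2 1.33 (Stat2) to 4.61 (Oas3), and a link between core and fold change was not tested.

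**Figure D2:**
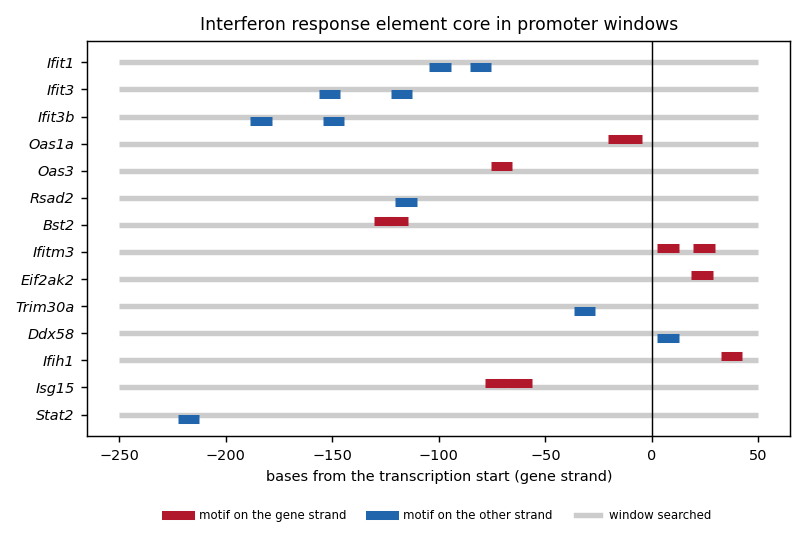
Red and blue bars are matches to the core (2 copies of GAAA, 2 bases apart) on the strand of the gene and on the other strand, against the distance in bases from the transcription start, with the window searched in grey, for the first window of each of the 14 genes that held 1. Most matches lay before the start, between bases -222 and -5, and those of Ifitm3, Eif2ak2, Ddx58 and Ifih1 lay after it.

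The first comparison asked how the genes stood in 3d-SN011 against vehicle. All 38 rose by the edgeR quasi-likelihood test at an adjusted p under 0.05, a call that 28.9% of all genes tested also received in this direction (28.2% were lower). Their median log2 fold change was 2.86 (range 0.48 to 5.58), against 0.0093 over all genes. In 35 of the 38 every 3d-SN011 library lay above every vehicle library, as it did for 29.5% of all genes, and the exceptions were Cmpk2, Ifi27 and Ifi44. Without 3d-SN011 replicate 2 these 3 lost the call, and Cmpk2 also without replicate 1 and Cmpk2 and Ifi27 without vehicle replicate 1 or 3. The 2 groups differ in SN-011 and in the prefix 3d, and these cannot be told apart.

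Against sham the 3d-SN011 libraries gave the same count, with all 38 higher by the same test (29.8% of all genes, with 27.9% lower). 3d-SN011 and sham differ in tMCAO, in SN-011 and in the prefix 3d, which cannot be told apart in this comparison. The median log2 fold change was 3.31, and 37 genes did not overlap, all but Cmpk2, against 31.8% of all genes. Cmpk2 lost its call without any 1 of the sham libraries, and without 3d-SN011 replicate 1 or 2. Oas3, the longest of the oligoadenylate synthetases, had 0 counts in all 3 sham libraries and 347 in 3d-SN011. Its level in 3d-SN011 was 98.2-fold a floor of 3 counts over the sham group, which bounds the sham side only.

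The IFIT genes, on chromosome 19 between 34550694 and 34650009 (mm10), encode tetratricopeptide proteins that bind foreign RNA and restrain its translation. All 4 rose in 3d-SN011 against vehicle, by log2 2.79 to 3.30. Ifit3 stood at 89.9, 128 and 44.3 CPM in 3d-SN011, 28.7, 7.37 and 40.1 CPM in SN011, 5.31, 10.8 and 10.5 CPM in vehicle and 5.03, 4.61 and 5.44 CPM in sham. The 3d-SN011 libraries did not overlap any other group, but 3d-SN011 replicate 3 and SN011 replicate 3 were close. Its log2 fold change against vehicle was 3.30 (SE 0.53, edgeR quasi-likelihood adjusted p = 0.000213), and 18.5% of its 150-base stretches also occur in Ifit3b, so reads could be split between them. Ifit2 stood at 66.8, 71.03 and 39.8 CPM in 3d-SN011, 15.7, 7.72 and 29.5 CPM in SN011, 6.37, 11.1 and 8.11 CPM in vehicle and 8.13, 8.43 and 10.1 CPM in sham. Vehicle and sham overlapped for Ifit2, and its log2 fold change in 3d-SN011 against vehicle was 2.79 (SE 0.40, edgeR adjusted p = 9.1e-05).

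The oligoadenylate synthetases make the 2-5A messenger that activates RNase L, and the like proteins Oasl1 and Oasl2 act beside them. They had the highest median of the role groups, log2 3.91 in 3d-SN011 against vehicle, with all 5 higher. Oasl2 stood at 84.1, 146 and 38.8 CPM in 3d-SN011, 27.0, 7.78 and 49.0 CPM in SN011, 3.31, 13.2 and 7.92 CPM in vehicle and 6.19, 5.58 and 4.96 CPM in sham. SN011 replicate 3 lay above 3d-SN011 replicate 3, and the 3d-SN011 libraries lay above all vehicle and sham libraries (log2 fold change 3.46 against vehicle, SE 0.65, edgeR adjusted p = 0.00061). Oas1a stood at 21.03, 30.0 and 9.91 CPM in 3d-SN011, 3.93, 2.28 and 9.75 CPM in SN011, 0.562, 1.69 and 1.80 CPM in vehicle and 0.243, 0.727 and 0.665 CPM in sham. All SN011 libraries lay above all vehicle libraries for Oas1a, though its log2 fold change of 1.98 (SE 0.60) was not called (edgeR adjusted p = 0.22). Reads of Oas1a are uncertain, since 32.4% of its 150-base stretches also occur in Oas1g.

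The group of MX and other antiviral effectors held both the gene with the largest fold change of the 38 and the gene with the smallest. Mx1, a dynamin-like GTPase known to carry an inactivating deletion in C57BL/6 mice, averaged 34.96 ± 11.1 CPM in 3d-SN011, 5.56 ± 5.25 in SN011, 0.727 ± 0.233 in vehicle and 0.566 ± 0.274 in sham (SD, n = 3 each). Its log2 fold change in 3d-SN011 against vehicle was 5.58 (SE 0.71, edgeR adjusted p = 4.1e-05). Ifitm3, a membrane protein that blocks fusion of virus with endosomes, stood at 83.3, 132 and 83.9 CPM in 3d-SN011, 26.1, 14.4 and 42.4 CPM in SN011, 8.12, 14.8 and 11.4 CPM in vehicle and 8.49, 8.36 and 5.75 CPM in sham. Vehicle overlapped both SN011 and sham for Ifitm3, no other groups overlapped, and its adjusted p in 3d-SN011 against vehicle was the smallest of the 38 (log2 fold change 3.12, SE 0.36, edgeR adjusted p = 2.4e-05).

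Cmpk2 changed least. It stood at 43.1, 45.1 and 28.3 CPM in 3d-SN011, 34.2, 24.6 and 35.02 CPM in SN011, 25.2, 31.8 and 26.4 CPM in vehicle and 24.02, 30.4 and 28.2 CPM in sham. 3d-SN011 replicate 3 lay inside the vehicle and sham ranges, and the log2 fold change in 3d-SN011 against vehicle was 0.48 (SE 0.19, edgeR adjusted p = 0.046). Its neighbour Rsad2 averaged 31.3 ± 8.92 CPM in 3d-SN011, 9.08 ± 6.01 in SN011, 4.31 ± 1.32 in vehicle and 3.15 ± 0.776 in sham, a log2 fold change of 2.86 (SE 0.46) in 3d-SN011 against vehicle.

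Of the cytosolic RNA sensors, Ddx58 (RIG-I) and Ifih1 (MDA5) signal through MAVS to induce interferon, and Dhx58 (LGP2) modulates them. All 3 rose in 3d-SN011 against vehicle, with a median log2 fold change of 2.23. Ddx58 stood at 42.1, 54.1 and 21.5 CPM in 3d-SN011, 13.6, 8.83 and 24.3 CPM in SN011, 5.87, 12.3 and 8.24 CPM in vehicle and 7.40, 6.61 and 6.17 CPM in sham. Ifih1 stood at 29.3, 33.8 and 20.04 CPM in 3d-SN011, 11.7, 5.38 and 16.4 CPM in SN011, 4.37, 9.24 and 4.12 CPM in vehicle and 5.94, 4.79 and 3.57 CPM in sham. For both genes vehicle replicate 2 was the highest vehicle library and lay above SN011 replicate 2. The log2 fold changes in 3d-SN011 against vehicle were 2.16 (SE 0.40) for Ddx58 and 2.23 (SE 0.41) for Ifih1, with edgeR adjusted p of 0.000537 and 0.000488.

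ISG15 is a ubiquitin-like protein, Herc6 is its main ligase in mice and Usp18 removes it and also dampens the receptor. All 3 rose in 3d-SN011 against vehicle, Isg15 by log2 2.07 (SE 0.44). Herc6 stood at 24.2, 38.2 and 12.9 CPM in 3d-SN011, 6.12, 6.61 and 15.2 CPM in SN011, 3.31, 7.87 and 6.63 CPM in vehicle and 2.91, 5.39 and 4.54 CPM in sham. Usp18 stood at 20.2, 28.6 and 7.27 CPM in 3d-SN011, 4.91, 1.40 and 10.5 CPM in SN011, 0.937, 3.12 and 1.99 CPM in vehicle and 1.09, 1.70 and 0.907 CPM in sham. SN011 replicate 3 lay above 3d-SN011 replicate 3 for both, and the log2 fold changes in 3d-SN011 against vehicle were 2.08 (SE 0.46, edgeR adjusted p = 0.00192) for Herc6 and 3.21 (SE 0.67, edgeR adjusted p = 0.00135) for Usp18. Herc6 shares 17.9% of its 150-base stretches with Gm45193, which overlaps it.

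In transcription and signalling, the members rose by log2 1.33 to 3.02 in 3d-SN011 against vehicle. Stat2, the ISGF3 subunit that carries the activation domain, stood at 81.9, 100.2 and 72.3 CPM in 3d-SN011, 43.3, 35.6 and 56.4 CPM in SN011, 29.4, 37.2 and 34.4 CPM in vehicle and 28.9, 28.7 and 27.2 CPM in sham. The groups were ordered with overlap only between SN011 and vehicle, and the log2 fold change in 3d-SN011 against vehicle was 1.33 (SE 0.17, edgeR adjusted p = 4.0e-05). Rtp4, a chaperone of receptors at the cell surface, stood at 28.9, 46.7 and 18.6 CPM in 3d-SN011, 8.67, 2.40 and 14.2 CPM in SN011, 2.56, 5.60 and 3.48 CPM in vehicle and 2.91, 2.73 and 2.54 CPM in sham. SN011 replicate 2 lay below every vehicle and sham library for Rtp4, while the 3d-SN011 libraries lay above all others (log2 fold change 3.02 against vehicle, SE 0.53, edgeR adjusted p = 0.000372).

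Parp9, Dtx3l and Parp14 lie side by side on chromosome 16 and encode ADP-ribosyltransferases and the ubiquitin ligase partner of Parp9. Parp14 stood at 65.1, 55.9 and 29.6 CPM in 3d-SN011, 15.4, 8.60 and 26.5 CPM in SN011, 5.997, 9.70 and 6.95 CPM in vehicle and 7.28, 4.97 and 5.87 CPM in sham. Dtx3l stood at 45.6, 43.1 and 24.3 CPM in 3d-SN011, 8.38, 5.38 and 23.8 CPM in SN011, 3.12, 6.25 and 6.18 CPM in vehicle and 4.25, 4.79 and 4.54 CPM in sham. The 3d-SN011 libraries lay above all others for both, although SN011 replicate 3 was within 1 CPM of 3d-SN011 replicate 3 for Dtx3l. Their log2 fold changes in 3d-SN011 against vehicle were 2.73 (SE 0.39) and 2.86 (SE 0.48), with edgeR adjusted p of 8.5e-05 and 0.000264. Dtx3l and Parp9 overlap over 458 exonic bases on opposite strands, and whether reads were counted by strand is not stated.

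Among the remaining genes, Lgals3bp, a secreted glycoprotein that binds galectins, was the most abundant by CPM. Lgals3bp stood at 367, 523 and 286 CPM in 3d-SN011, 89.9, 35.04 and 258 CPM in SN011, 17.8, 56.5 and 37.5 CPM in vehicle and 30.1, 23.7 and 11.7 CPM in sham. SN011 replicate 3 lay just under the lowest 3d-SN011 library, SN011 replicate 2 lay inside the vehicle range, and the log2 fold change in 3d-SN011 against vehicle was 3.39 (SE 0.64, edgeR adjusted p = 0.000669). Ifi27, which encodes a small membrane protein and lies on chromosome 12, stood at 85.8, 149 and 45.7 CPM in 3d-SN011, 66.8, 27.0 and 80.4 CPM in SN011, 22.4, 51.0 and 36.04 CPM in vehicle and 31.1, 24.2 and 16.6 CPM in sham. 3d-SN011 overlapped both SN011 and vehicle for Ifi27 (log2 fold change 1.36 against vehicle, SE 0.46, edgeR adjusted p = 0.0223). Its neighbour Ifi27l2a averaged 29.3 ± 18.99 CPM in 3d-SN011, 7.67 ± 6.47 in SN011, 1.59 ± 0.693 in vehicle and 0.525 ± 0.152 in sham (SD, n = 3 each), a log2 fold change of 4.21 (SE 0.67) in 3d-SN011 against vehicle.

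**Figure D3:**
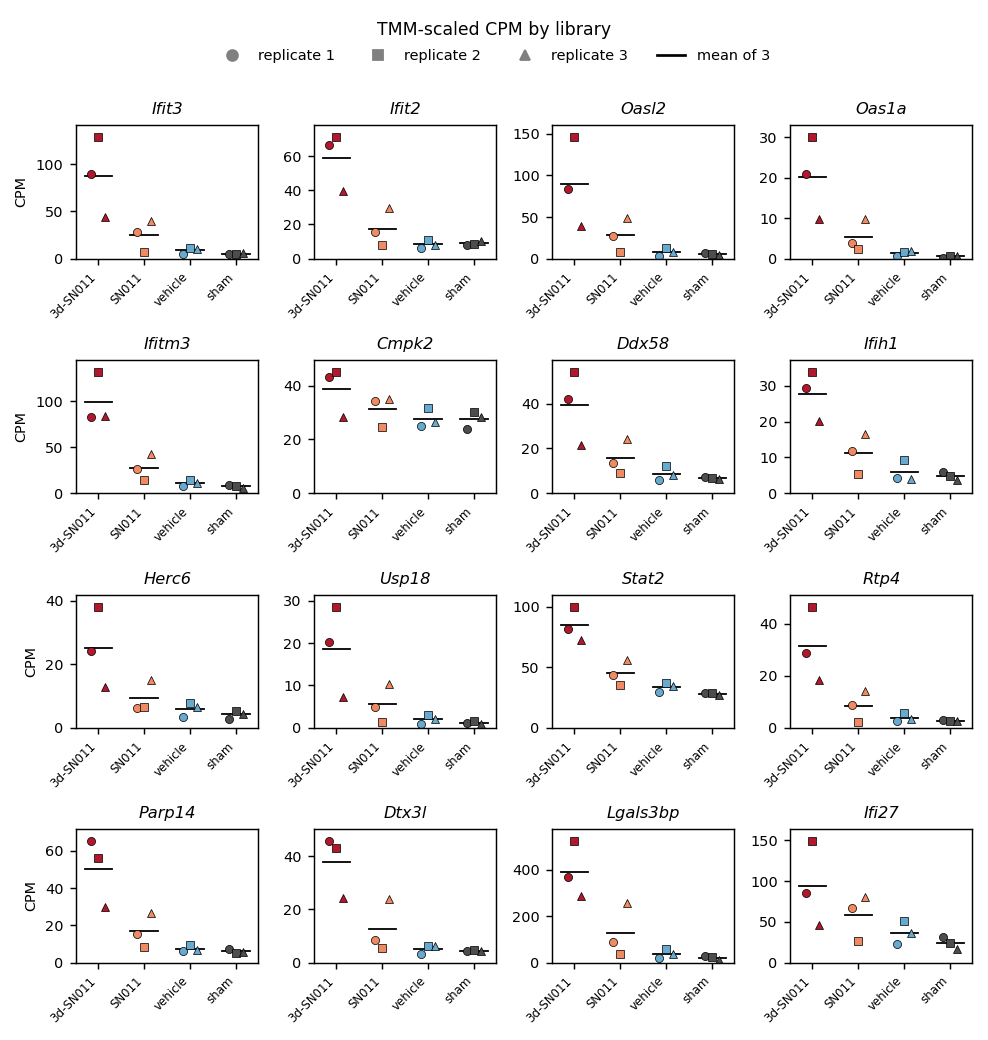
Points are CPM of 16 genes in each library (circle, square and triangle for replicates 1, 2 and 3) and bars are means of 3, on axes that start at 0. 3d-SN011 replicate 2 is the highest library in all panels but Parp14 and Dtx3l, and SN011 replicate 3 lies above 3d-SN011 replicate 3 in Oasl2, Cmpk2, Ddx58, Herc6, Usp18 and Ifi27.

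Between 3d-SN011 and SN011, which carry the same treatment label, 32 of the 38 were higher in 3d-SN011 by the edgeR quasi-likelihood test, as were 23.6% of all genes (22.9% were lower). The median log2 fold change was 1.60 (range 0.31 to 2.65). Fewer genes were free of overlap than against vehicle: in 21 of the 38 every 3d-SN011 library lay above every SN011 library, against 24.6% of all genes. The 6 that were not called were Ifit3b (edgeR adjusted p = 0.0546), Ifi44 (0.0959), Oas3 (0.117), Cmpk2 (0.196), Oas2 (0.218) and Ifi27 (0.228). The count depended on the libraries kept. It was 17 without SN011 replicate 1 (16.8% of all genes higher), 20 without SN011 replicate 2 (15.5%) and 20 without 3d-SN011 replicate 2 (21.9%), and the fit of these 6 libraries alone gave 17 (15.3%). With each library of the 2 groups left out in turn, the count ran from 17 to 35 and the median from 1.22 to 2.18. Whether lower counts came from a library's values or from the smaller fit was not tested.

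The comparison of SN011 with vehicle sets SN-011 against PBS after tMCAO with no prefix on either group. None of the 38 was called by the edgeR quasi-likelihood test (smallest adjusted p 0.157, 0.0108% of all genes higher), while 28 had an unadjusted p under 0.05. All 38 had positive log2 fold changes, with a median of 1.20 (range 0.17 to 3.42) against -0.0077 over all genes. In 6 genes, Bst2, Ifi27l2a, Ifit3b, Mx1, Oas1a and Oas3, every SN011 library lay above every vehicle library, as for 9.01% of all genes. Other tools gave other counts: DESeq2 called 7 of the 38 (2.53% of all genes), limma voom with quality weights 15 (4.21%) and edgeR without the filter on low counts 19 (1.72%). Leaving out SN011 replicate 2, the lowest library for 37 genes, gave 15 (2.64%), and leaving out SN011 replicate 3 gave 0 and lowered the median to 0.66.

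Against sham, SN011 also had 0 of the 38 called by the edgeR quasi-likelihood test (0.113% of all genes higher), with Oas3 nearest at an adjusted p of 0.0517, and 36 had an unadjusted p under 0.05. The median log2 fold change was 1.70. SN011 and sham differ in both tMCAO and SN-011, which cannot be told apart in this comparison. In 23 genes SN011 did not overlap sham, against 12.8% of all genes. DESeq2 called 25 (3.27% of all genes), voom 28 (6.18%), edgeR without the filter 32 (2.19%), and edgeR without SN011 replicate 2 28 (3.45%). Oas3 had 138 counts in SN011 and 0 in sham, 43.3-fold the floor of 3 counts over the sham group, which again bounds the sham side only.

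The comparison of vehicle with sham shows the genes after tMCAO without SN-011. None of the 38 was called by the edgeR quasi-likelihood test (adjusted p of 1 for each, and 0% of all genes higher), DESeq2 and voom also called 0, and 1, Oas3, had an unadjusted p under 0.05. The median log2 fold change was 0.49, with 36 positive and Ifit2 and Ifi35 at -0.059 and -0.025. In 6 genes, Ifi27l2a, Ifit1, Isg15, Oas3, Slfn2 and Stat2, every vehicle library lay above every sham library, as for 6.86% of all genes. Oas3 had 11 counts in vehicle and none in sham, 3.87-fold the floor of 3 counts over the sham group. That value leaves out the error of the 11 counts and the spread between libraries, so it is no lower limit. Leaving out vehicle replicate 2 lowered the median to 0.23, and leaving out vehicle replicate 1 raised it to 0.75.

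**Figure D4:**
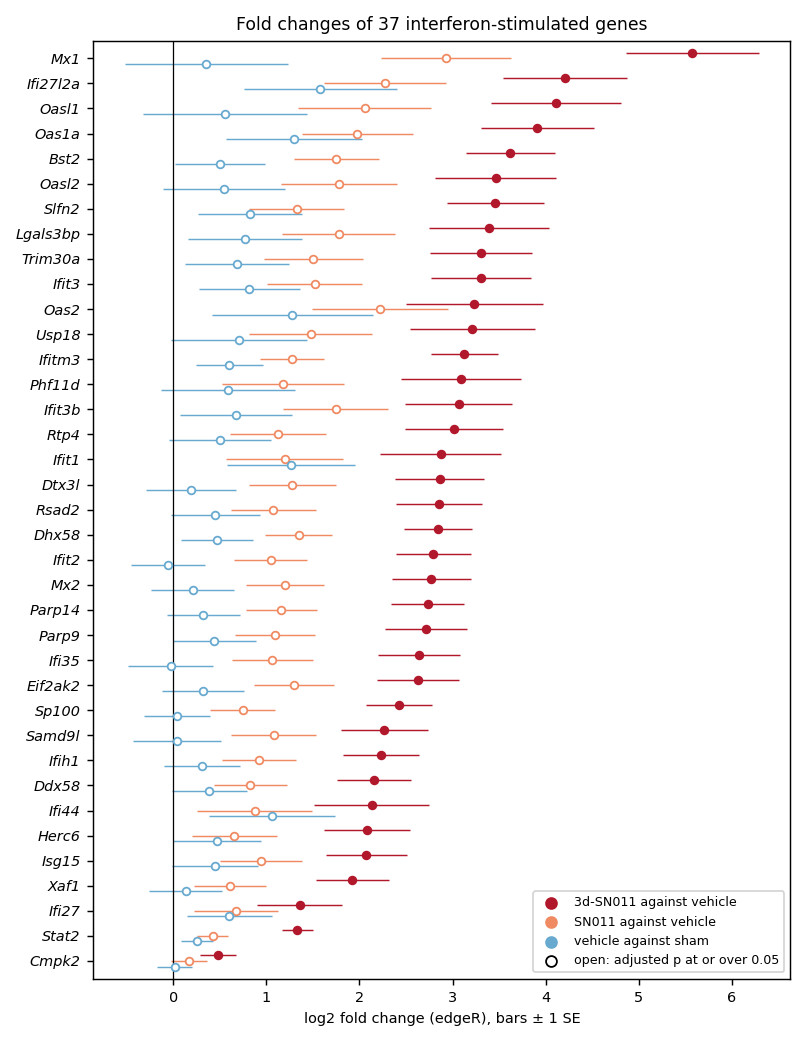
Points are log2 fold changes by edgeR with bars of 1 SE for 37 genes (Oas3, with 0 counts in sham, is left out), sorted by 3d-SN011 against vehicle. Filled points are called at an adjusted p under 0.05: all are filled for 3d-SN011 against vehicle, and none for SN011 against vehicle or vehicle against sham, which share the vehicle libraries.

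Most of the genes ranked the libraries alike within 3d-SN011, within SN011 and within vehicle, but less so within sham. In 3d-SN011 replicate 2 was highest for 34 of the 38 and replicate 3 lowest for 37, where these libraries were highest and lowest for 32.9% and 35.3% of all genes. In SN011 replicate 3 was highest for 37 (39.1% of all genes) and replicate 2 lowest for 37 (35.4%). In vehicle replicate 2 was highest for 31 (38.8%) and replicate 1 lowest for 30 (27.9%), while in sham replicate 1 was highest for 22 (36.5%) and replicate 3 lowest for 19 (34.9%). These shares are descriptions, since the genes of a library are not independent of each other. Across groups, SN011 replicate 3 lay above 3d-SN011 replicate 3 for 17 of the 38 (51.7% of all genes) and SN011 replicate 1 did for 7 (49.9%), while SN011 replicate 2 lay above vehicle replicate 2 for 8 (49.2%). The 17 is a share near that of all genes.

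Vehicle replicate 2 had 36 of the 38 genes above all sham libraries (34.9% of all genes), against 7 in vehicle replicate 1 (28.6%) and 24 in replicate 3 (30.4%). Its microglia markers summed to 389 CPM, between 379.9 in replicate 1 and 423 in replicate 3, and its astrocyte markers to 4161 CPM, within 4139.5 to 4485. The summed choroid plexus and ependyma markers did follow the order of the interferon-stimulated genes in vehicle, at 1306, 2672 and 2122 CPM in replicates 1, 2 and 3. They also did in sham, at 2473.5, 1214 and 113 CPM, and in 3d-SN011, at 245, 826 and 125 CPM. In SN011 they did not, at 2973, 1036 and 2482.5 CPM. Most of these sums was Ttr, at 1196, 2450 and 1962 CPM in vehicle. Ttr and Kl had the order in vehicle, sham and 3d-SN011, and Foxj1 and Tmem212 had it in none of these groups. In 3d-SN011 only Ttr and Kl had it, and Foxj1, Ccdc153 and Tmem212 were lowest in replicate 2. The order of the SN011 libraries was that of their summed microglia and astrocyte markers. It was not that of their oligodendrocyte markers, at 12247, 8327 and 11388 CPM in replicates 1, 2 and 3. Microglia markers summed to 626, 476 and 1419 CPM and astrocyte markers to 5847, 4783 and 8948 CPM in SN011 replicates 1, 2 and 3, alongside 582, 281 and 1059.6 CPM of interferon-stimulated genes. Gfap, at 1213.5, 413 and 3644 CPM, varied most within the astrocyte sum. Slc1a2 and S100b of that sum were highest in replicate 1 by a small margin, and the other markers of both lists kept the order. In 3d-SN011 replicate 3 was lowest for summed microglia markers, summed astrocyte markers and summed interferon-stimulated genes. The microglia sum was highest in replicate 1, at 3270 CPM against 2986 CPM in replicate 2, and Slc1a3 and Slc1a2 of the astrocyte list were lowest there. The summed monocyte and border macrophage markers were highest in replicate 3, at 70.7 CPM against 52.9 and 23.3 CPM in replicates 1 and 2. Within that list the monocyte genes Ly6c2 and Ccr2 were lowest in replicate 3, at 0.485 and 0.916 CPM, and the other 6, Ms4a7 and F13a1 foremost at 24.5 and 20.8 CPM, were highest there. Neutrophil markers were low throughout, at 3.06 to 6.73 CPM in 3d-SN011 and 0.579 to 1.12 CPM in vehicle, with Ly6g at 0 in SN011 and sham. The 4 markers of plasmacytoid dendritic cells, potent interferon producers, summed to 20.3 to 105 CPM in 3d-SN011 and 21.7 to 23.7 CPM in vehicle, and most of this was Siglech, also a microglia marker. Klk1 of that list was at 0 in all 3d-SN011 libraries. The part of any of these cell types in the interferon-stimulated genes was not tested.

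**Figure D5:**
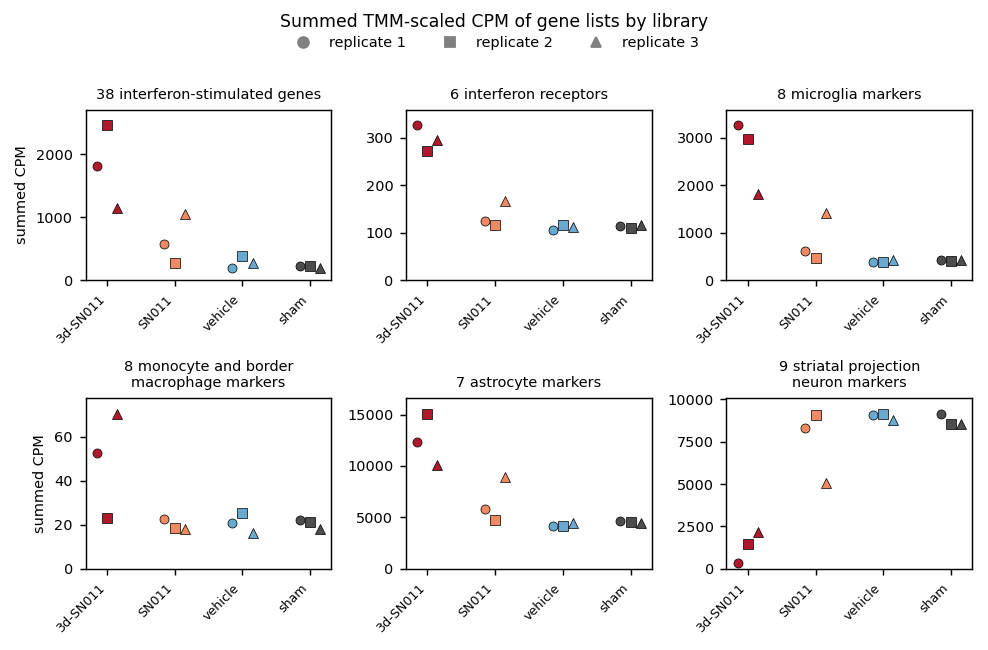
Points are summed CPM of 6 gene lists in each library, with symbols for replicates 1, 2 and 3 and axes from 0. The 38 genes, the microglia markers and the astrocyte markers are high in 3d-SN011 and in SN011 replicate 3 (1059.6, 1419 and 8948 CPM), where striatal projection neuron markers are low (5047 CPM).

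The ligands themselves were almost absent from the counts. The 18 type I interferon genes had 5 counts in all among 207147711 counts in the 12 libraries, and 15 of them, Ifnb1 (interferon beta) included, had 0 everywhere. For a gene with 0 counts in a library, the limit that 0 counts allow is 3 counts, or 0.148 to 0.195 CPM, so levels up to that limit cannot be told from absence there, and counting error is all that it covers. Interferon gamma (Ifng) and the type III genes had 7 counts in all.

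Of the 6 interferon receptor genes, 5 were higher in 3d-SN011 than in vehicle by the edgeR quasi-likelihood test, all but Ifnlr1. In this comparison 28.9% of all genes were higher and 28.2% lower, the shares to set beside each count of pathway genes. Ifnar2 stood at 52.9, 43.0 and 39.7 CPM in 3d-SN011, 16.1, 13.9 and 27.6 CPM in SN011, 10.4, 11.3 and 11.9 CPM in vehicle and 12.7, 12.2 and 13.6 CPM in sham. Every 3d-SN011 and every SN011 library of Ifnar2 lay above every vehicle library, as for 29.5% and 9.01% of all genes. Its log2 fold change in 3d-SN011 against vehicle was 2.01 (SE 0.22), and that of Ifnar1 was 0.50 (SE 0.11). Of 7 kinases and transcription factors 5 were higher, Jak2 was lower by log2 -0.48 (SE 0.12) and Jak1 was not called. Irf7, the factor that amplifies interferon production and is itself induced, stood at 57.9, 79.6 and 37.1 CPM in 3d-SN011, 15.3, 4.62 and 31.3 CPM in SN011, 2.62, 6.96 and 4.83 CPM in vehicle and 2.31, 3.15 and 2.24 CPM in sham. The libraries of Irf7 were in the same order within 3d-SN011, SN011 and vehicle as those of most of the 38 genes, and its log2 fold change in 3d-SN011 against vehicle was 3.60 (SE 0.57). Irf9 rose by log2 1.52 (SE 0.27) and Irf3, which is mainly controlled by phosphorylation, by 0.79 (SE 0.18).

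Feedback inhibitors moved as well, with 4 of 6 higher in 3d-SN011 than in vehicle (28.9% of all genes, with 28.2% lower). Socs3, which blocks the kinases, rose by log2 4.39 (SE 0.54), Ptpn6, a phosphatase of blood cells and microglia, by 3.98 (SE 0.43) and Socs1 by 3.47 (SE 0.62), while Pias1 fell by 0.57 (SE 0.13) on the log2 scale. Of 10 genes that sense nucleic acids or relay the signal 9 were higher, all but Tbk1, beside the same 28.9% of all genes. Sting1, whose product is the target of SN-011, stood at 31.9, 28.8 and 12.3 CPM in 3d-SN011, 6.76, 5.44 and 14.8 CPM in SN011, 3.37, 4.82 and 4.44 CPM in vehicle and 3.88, 4.18 and 4.11 CPM in sham. Every SN011 library lay above every vehicle library for Sting1, as for 9.01% of all genes, with SN011 replicate 3 above 3d-SN011 replicate 3. The log2 fold change of Sting1 in 3d-SN011 against vehicle was 2.53 (SE 0.40). Cgas, the DNA sensor upstream, rose by log2 2.40 (SE 0.36). None of these pathway genes was called in SN011 against vehicle, SN011 against sham or vehicle against sham by the same test. In these comparisons 0.0108%, 0.113% and 0% of all genes were higher.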

How the data were processed

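Striatal polyA+ RNA was sequenced in paired reads per the labels' protocols. The submitters' processing notes name HISAT2, featureCounts and mm10, and the sources used here give no versions or strandedness. Each library has 1 deposited table of whole counts by Ensembl identifier, to which the authors applied no normalization as far as the values show. Positions and exon lengths are from GENCODE M21.

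Genes were kept by filterByExpr (minimum count 10) and all 12 libraries were fitted with edgeR 4.0.16 (quasi-likelihood test, TMM scaling, group only), with Benjamini-Hochberg adjustment over 18537 genes and a threshold of 0.05. The 6 comparisons share groups. SE is the log2 fold change divided by the root of F, and CPM is TMM-scaled. Alternatives were RLE scaling, no filter, DESeq2 1.42.0, limma voom 3.58.1 with quality weights, fewer libraries in the fit, a replicate block and leaving out each library. Scripts were tested on simulated counts.

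The 38 genes and all lists were chosen with earlier results of these data known, and 1 gene of the pathway list is not reported here. Values in every library are given for the 2 genes of each role with the highest mean CPM over the 12 libraries, others where they are highest, lowest or exceptions, and pathway genes as examples. Promoters are RefSeq windows (GRCm38.p6).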

Additional observations from a re-analysis of the deposited data

How the results depend on the processing

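The median log2 fold change of the 38 genes kept its sign under every alternative run in all 6 comparisons. Counts of genes called higher held in 3d-SN011 against vehicle (35 to 38 over libraries left out) and against sham (37 to 38). In 3d-SN011 against SN011 the count was 32, and 17 in the fit of 6 libraries, with 17 to 35 over libraries left out. In SN011 against vehicle it was 0, but 19 with no filter, 7 with DESeq2, 15 with voom and 0 to 15 over libraries left out. In SN011 against sham it was 0, but 32, 25 and 28 under these 3 settings, 1 (Ifi27l2a) in the 9 libraries without 3d-SN011 and 0 to 28 over libraries left out. The cause was not tested.

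Libraries of the same replicate number were not more alike than others. The 18 same-number correlations ran from -0.348 to 0.203 (median -0.0244), and the 36 between different numbers from -0.298 to 0.353 (median 0.0284). With 3 libraries a group, these values cannot exclude pairing. With the replicate block the counts were 37, 37, 26, 0, 0 and 0, in the order 3d-SN011 against vehicle, sham and SN011, SN011 against vehicle and sham, and vehicle against sham.

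Of 1200 gene-level values under alternatives, 8 changed sign, all in vehicle against sham: Oasl2 (-0.079), Cmpk2 (-0.053) and Dtx3l (-0.16) with voom, and Ifit2, Cmpk2 and Ifih1 over libraries left out, with ranges of -0.30 to 0.11, -0.095 to 0.0897 and -0.17 to 0.51. The other values kept their sign, with 70 gaining and 46 losing a call. Genes under about 1 CPM, such as Oas3 in vehicle with 11 counts over 3 libraries, are limited by depth.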
